A study of Mus musculus with 8 samples.

Results

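The cyclins that drive the cell cycle were examined for N6-methyladenosine (m6A) in mouse embryonic stem cells (ESCs). The 9 genes were Ccna2, Ccnb1, Ccnb2, Ccnd1, Ccnd2, Ccnd3, Ccne1, Ccne2 and Ccnf, out of 22028 annotated protein-coding genes. A peak was taken as a cyclin peak when its exon blocks shared 1 or more bases, on the same strand, with an annotated exon of 1 of these genes. The peak list of DMSO-treated cells held 21 cyclin peaks among 18895, and the list of Dox-treated cells held 12 among 13001.

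The peaks came from methylated RNA immunoprecipitation sequencing (MeRIP-seq), in which fragments of poly(A) RNA that bind an m6A antibody (IP) are sequenced beside unselected fragments (input). The cells were of the E14 line, grown with leukemia inhibitory factor, and received either the solvent DMSO or doxycycline (Dox) for 24 h. According to the study's methods, the cells of both treatments carry a Dox-inducible Dux transgene and a tdTomato reporter under the promoter of the retrotransposon MERVL. Dux is a transcription factor of the 2-cell embryo, and Dox moves these ESCs toward a 2-cell-like (2C-like) state. Whether the line is 1 clone is not stated in the sources used here. For each treatment 2 IP and 2 input libraries were sequenced, 8 in all, but only 1 peak list per treatment was analysed. No value below therefore has a replicate error, no difference between treatments was tested, and intervals cover counting error only. No group received Dox without the transgene, so that effects of Dox and of Dux cannot be told apart. Sequencing depth was not analysed here. The list of DMSO-treated cells was the longer one, at 1.45 times the number of peaks, and in bulk RNA fewer transcripts, fewer cells that carry them and less methylation per transcript cannot be told apart. For m6A over all transcripts the study reports a rise with Dox, by dot blot and by peak intensity. The number of peaks and the bases they cover do not measure that level. To see which transcripts could be measured, 10 ESC genes, among them Pou5f1, Sox2 and Nanog, were looked up. A peak was carried by 10 of 10 in each list, against 27.5% (DMSO) and 22.1% (Dox) of all protein-coding genes. This lookup does not identify the cell type. A peak gives no expression level.

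Cyclins are the regulatory subunits of cyclin-dependent kinases (CDKs), and the levels of most of them rise and fall within each cell cycle. D-type cyclins act with CDK4 and CDK6 in G1, E-type cyclins with CDK2 at entry into S phase, cyclin A2 in S and G2 phase, and B-type cyclins with CDK1 at mitosis. Cyclin F is not known to bind a CDK and serves as the substrate receptor of a ubiquitin ligase. m6A is placed on mRNA by a methyltransferase complex, mostly around stop codons and in long exons, and m6A bound by YTHDF2 marks transcripts for decay. ESCs cycle fast, with a short G1.

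The sites on which the results turn are shown first, as 21 bases of the mouse reference genome (GRCm38, mm10) read 5′ to 3′ along the transcript. Capitals mark GGAC, the m6A motif that the study names for its peaks. Positions are counted from the first base of the stop codon to the first base of the motif, with negative numbers upstream. The first set holds GGAC sites that lay inside a peak in both lists, in the last codons or in the 3′UTR, in Ccnd1, Ccnb2, Ccne1 and Ccnf:
Ccnd1, position -7, chr7:144932604-144932624, minus strand: cgagatgtGGACatctgaggg
Ccnb2, position 8, chr9:70407901-70407921, minus strand: tagacactGGACtgccatcct
Ccne1, position 273, chr7:38098232-38098252, minus strand: gacccactGGACtcttcacac
Ccnf, position 67, chr17:24223821-24223841, minus strand: tttctctaGGACactgcctat
Ccnf, position 123, chr17:24223765-24223785, minus strand: agctgtcaGGACactgagctc
Ccnf, position 162, chr17:24223726-24223746, minus strand: tacgtgttGGACagcagccac

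The second set shows GGAC sites farther upstream in coding sequence that lay inside a peak in both lists, 1 in Ccne1 and 3 in Ccnf:
Ccne1, position -965, chr7:38103094-38103114, minus strand: ataccccaGGACtgcatttca
Ccnf, position -517, chr17:24224966-24224986, minus strand: agccttctGGACtggagcctg
Ccnf, position -349, chr17:24224237-24224257, minus strand: tggccagaGGACaagatccac
Ccnf, position -262, chr17:24224150-24224170, minus strand: cgggccaaGGACattacgacc

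The third set shows GGAC sites that lay inside a DMSO peak but in no Dox peak, leaving out a site at position -121 of Ccne1, which a splice junction and the border of 2 DMSO peaks divide:
Ccnd1, position 92, chr7:144932505-144932525, minus strand: ccccttggGGACatgttgtta
Ccne1, position -1027, chr7:38103156-38103176, minus strand: gcatgcgtGGACccctgctct
Ccne1, position -721, chr7:38100642-38100662, minus strand: ttggcacaGGACttctttgat
Ccnf, position -19, chr17:24223907-24223927, minus strand: agtgacaaGGACatgcacctg

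Across the group, the site at the end of the coding sequence was present in both lists for most cyclins, while 9 of the 14 DMSO peaks elsewhere had no Dox peak over them. Over all DMSO peaks away from the stop codon 54.8% were overlapped, a value that the interval of the cyclin share, given below, includes. A DMSO peak lay on 7 of 9 cyclin genes, against 27.5% of all protein-coding genes. A Dox peak lay on 6 of 9, against 22.1%. The shares over all genes include genes that ESCs do not express. Ccnd2 and Ccne2 had 0 peaks in either list, and Ccna2 had peaks in the DMSO list alone. Of all protein-coding genes with a DMSO peak, 22.0% had no Dox peak, and among the cyclins this was 1 of 7. More peaks in the DMSO list were found for 5 of the 7 cyclins with a peak, against 59.1% of protein-coding genes with a peak in either list. Ccnd3 had more Dox peaks, and Ccnf had 3 in each list.

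The exons of the 9 genes held 3100 bases inside DMSO peaks and 1500 bases inside Dox peaks. This was a ratio of 2.07, beside 1.47 for the bases in all peaks of the lists. The ratio for the number of cyclin peaks was 1.75, beside 1.45 for all peaks. Of the cyclin bases in Dox peaks, 98.3% also lay in a DMSO peak, beside 93.0% over all peaks. Of the cyclin bases in DMSO peaks, 47.6% also lay in a Dox peak, beside 63.3%. The Dox bases outside DMSO peaks were 25 bases of Ccne1. In each of the 7 genes with peaks the covered length was greater in the DMSO list.

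**Figure D1:**
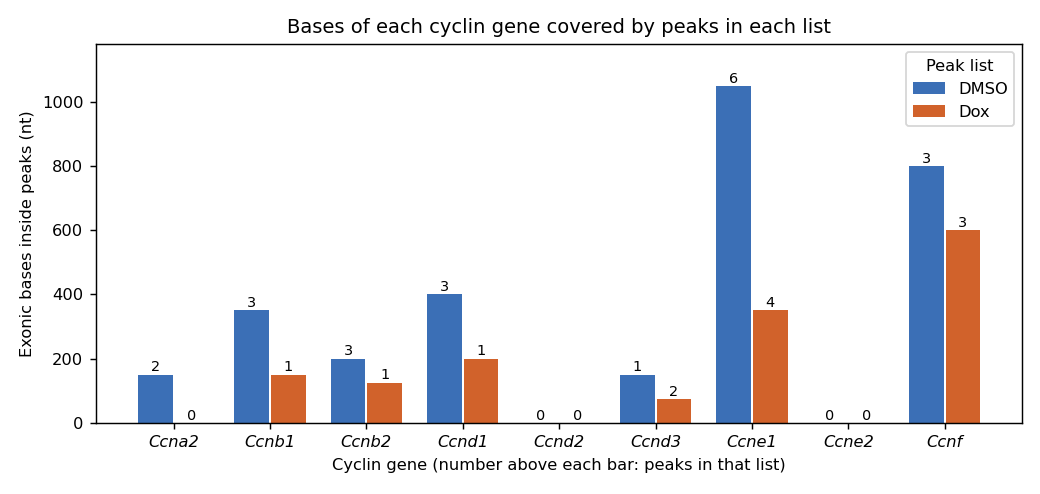
Exonic bases inside peaks (vertical axis, nt) for each cyclin gene in the DMSO list (blue) and the Dox list (orange), with the number of peaks above each bar. Ccne1 had the tallest DMSO bar at 1050 nt against 350 nt in the Dox list, and Ccnf the tallest Dox bar at 600 nt.

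Overlap with the other list was asymmetric. Of the 21 DMSO cyclin peaks, 11 shared bases with a Dox peak, or 52.4% (Wilson 95% interval 32.4 to 71.7), beside 57.0% of all DMSO peaks. Of the 12 Dox cyclin peaks, 12 were overlapped by a DMSO peak, beside 92.7% of all Dox peaks. A count of 0 Dox-only peaks in 12 allows a share of up to 25.0%, so that this is not set apart from the whole list.

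Most of the Dox cyclin peaks lay around the stop codon. Peaks were counted there when no more than 200 nt of transcript separated their middle base from the codon's first base. This held for 7 of 21 DMSO cyclin peaks (33.3%, 17.2 to 54.6), against 22.9% of all DMSO peaks with a position on a coding transcript. It held for 7 of 12 Dox cyclin peaks (58.3%, 32.0 to 80.7), against 25.1%. The number was thus 7 in each list, out of fewer peaks in the Dox list. These intervals treat peaks as independent, although peaks of a gene share their transcript. Of the 7 Dox peaks, 2 lay inside the same DMSO peak of Ccnd3. The same number of cyclin genes, 6, had such a peak in each list. Of the 7 DMSO peaks at the stop codon 6 were overlapped by a Dox peak (85.7%, 48.7 to 97.4). Of the 14 DMSO peaks elsewhere 5 were overlapped (35.7%, 16.3 to 61.2). Over all DMSO peaks these shares were 66.4% at the stop codon and 54.8% elsewhere. The intervals of these overlapped shares of cyclin peaks meet each other and hold the values of the whole list, and the difference was not tested.

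**Figure D2:**
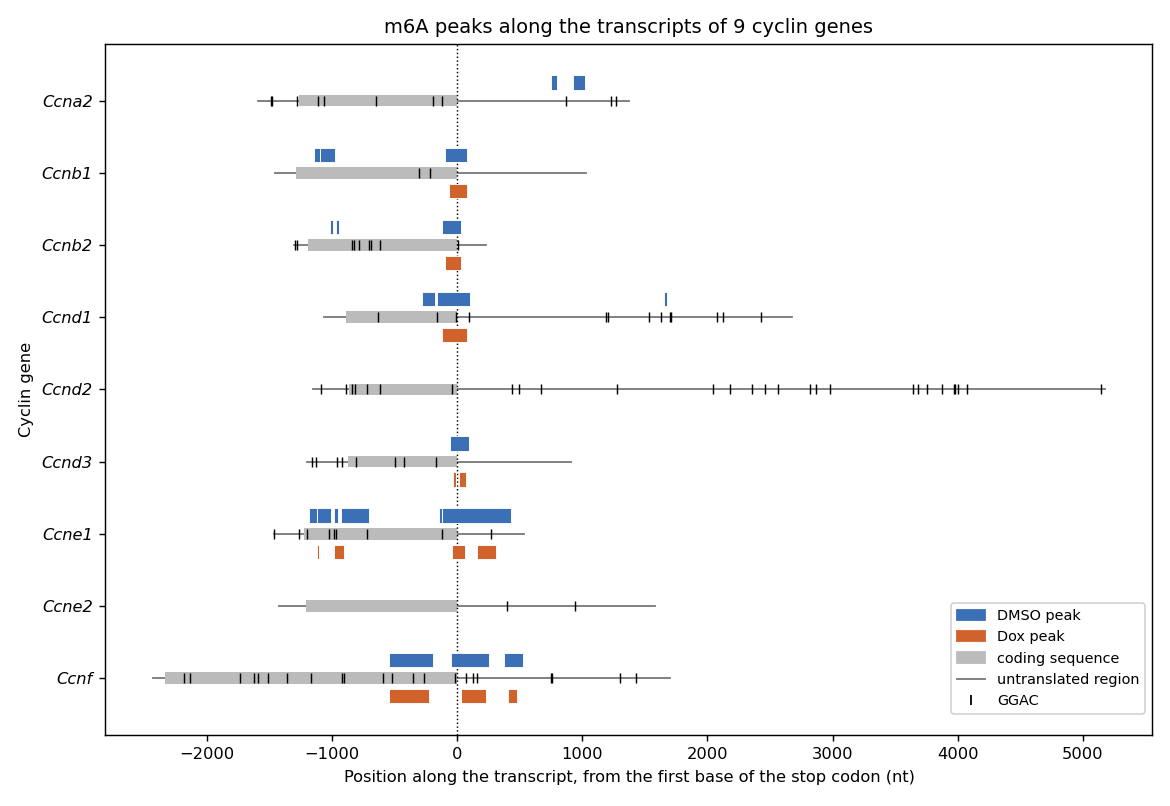
Position of each peak along 1 transcript per cyclin gene (horizontal axis, nt from the first base of the stop codon, dotted line), with DMSO peaks in blue above and Dox peaks in orange below the gene, coding sequence in grey and GGAC as black ticks; a spliced peak is drawn as 1 bar over its joined exons. Peaks of both lists meet near the dotted line in Ccnb1, Ccnb2, Ccnd1, Ccnd3, Ccne1 and Ccnf, and the 5′ peaks of Ccnb1 and Ccnb2 are blue only.

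No cyclin peak had its middle base in a 5′UTR, where 3.43% of all DMSO peaks and 3.85% of all Dox peaks lay. Coding sequence, with the stop codon counted in, held 14 of 21 DMSO and 6 of 12 Dox cyclin peaks, beside 72.2% and 71.3% of all peaks. The 3′UTR held 7 and 6, beside 24.3% and 24.8%. Cyclin peaks were of ordinary length, with medians of 125 nt (DMSO) and 112.5 nt (Dox), beside 125 nt over all peaks of each list. The score of a peak, read as the authors' −log10 p-value, was ranked within its own list because a common scale of the lists is not known. The median cyclin peak stood at the 54.4th percentile of the DMSO list (lowest 4.44, highest 91.3) and at the 65.6th percentile of the Dox list (20.0 to 94.7). Ranked among peaks of protein-coding genes of the same length class (under 100 nt or not), the medians were 63.7 and 78.9.

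**Figure D3:**
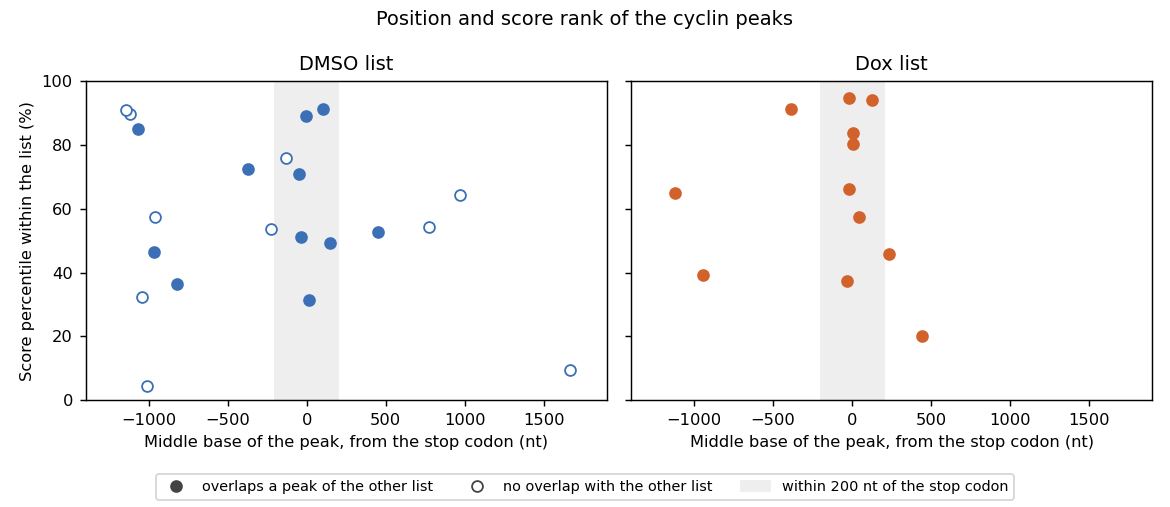
Score percentile of each cyclin peak within its own list (vertical axis, %) against the distance of its middle base from the stop codon (horizontal axis, nt), with the DMSO list on the left and the Dox list on the right; filled points overlap a peak of the other list, open points do not, and the grey band is within 200 nt of the stop codon. The Dox panel has 7 of its 12 points in the band and 0 open points, and the DMSO panel has 10 open points, 1 of them in the band.

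Among the D-type cyclins, Ccnd1 carried peaks in both lists around its stop codon, Ccnd3 did so with short peaks, and Ccnd2 carried none. Ccnd1 (ENSMUSG00000070348.5, chr7:144929931-144939925, minus strand) encodes cyclin D1, whose mRNA is induced by growth factor signals. It had 3 DMSO peaks over 400 bases and 1 Dox peak over 200 bases. The DMSO peak at its stop codon, chr7:144932506-144933206, was 275 nt long and spliced, and reached from 162 nt before to 103 nt after the first base of the codon, counted on the transcript. Its score was 11.7, at percentile 51.2 of the DMSO list. The Dox peak, chr7:144932531-144932730, was 200 nt long, lay wholly inside the DMSO peak and had a score of 16.6, at the 94.7th percentile of the Dox list. It ranked highest of the 12 Dox cyclin peaks, while the DMSO peak at the same place stood in the middle of its list. The coding part of this site runs from codon 255 to the last codon, 295, in the Dox list and from codon 242 in the DMSO list. That end of cyclin D1 holds the phosphorylation site that marks the protein for degradation. The GGAC at position -7, printed above with the stop codon tga 3 bases after it, lay inside both peaks.

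The other Ccnd1 peaks were in the DMSO list alone. A peak of 100 nt in exon 4, at codons 203 to 236, had a score of 11.8. In the 3′UTR, 1666 nt after the stop codon, a short peak of 25 nt had a score of 10.4, at the 9.47th percentile. Neither held GGAC.

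Ccnd3 (ENSMUSG00000034165.16, chr17:47505051-47599691, plus strand) encodes cyclin D3. Its DMSO peak of 150 nt, chr17:47598716-47598865, ran across the stop codon with a score of 11.1, at the 31.5th percentile. In the Dox list the same stretch held 2 shorter peaks, of 25 nt just before and of 50 nt just after the stop codon, with scores of 12.1 and 11.7. Both lay inside the DMSO peak, so that the larger number of Dox peaks in this gene goes with fewer covered bases, 75 against 150. None of the 3 held GGAC. The DMSO peak held 3 sites of the broader DRACH consensus (any base but C, then a purine, then AC, then any base but G), 1 of which is printed with the consensus in capitals:
Ccnd3, position -38, chr17:47598728-47598748, plus strand: gcccagtcAGACCagcactcc

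The Dox peaks of Ccnd3 held 0 DRACH sites. The peak of 25 nt had 1 other near-identical locus, the processed pseudogene Ccnd3-ps on chromosome 4, which carried 0 peaks in either list.

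Ccnd2 (ENSMUSG00000000184.12, chr6:127125162-127152193, minus strand) encodes cyclin D2 and had the longest transcript of the 9, with 6330 nt. It held 28 GGAC sites, more than any other cyclin transcript here, and 0 peaks in both lists. Of these sites 1 lay within 200 nt of the stop codon:
Ccnd2, position -43, chr6:127130368-127130388, minus strand: gaagatccGGACcaagccacc

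GGAC within 200 nt of the stop codon was thus present in Ccnd1, Ccnd2 and Ccnd3, and of these genes it was inside a peak in Ccnd1 only. Expression was not analysed here, and an mRNA that is absent or rare cannot give a peak.

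The E-type cyclins differed from each other in the same way. Ccne1 (ENSMUSG00000002068.16, chr7:38097984-38107534, minus strand) encodes cyclin E1, the activator of CDK2 at the start of S phase. It was the cyclin gene with most peaks, 6 with DMSO over 1050 bases and 4 with Dox over 350 bases. The DMSO peaks fell into 2 stretches. The upstream one held 4 peaks between codons 14 and 173, with scores from 11.2 to 15.6. The downstream one held a peak of 25 nt in exon 11 and a peak of 575 nt, the longest cyclin peak, that ran on the transcript from position -120 to position 433.

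The Dox peaks covered less of each stretch. The peak of 575 nt (score 11.6) was matched by a Dox peak of 100 nt across the stop codon, chr7:38098459-38098558, which scored 13.5, and another of 150 nt farther down the 3′UTR, chr7:38098209-38098358, which scored 11.4. The Dox peak at the stop codon was at the 83.8th percentile and the DMSO peak at the 49.4th. Upstream, 2 Dox peaks remained, of 25 nt and 75 nt, with scores of 12.0 and 11.2. The peak of 75 nt overlapped a DMSO peak of 25 nt and the next one of 225 nt, and held the 25 Dox bases outside DMSO peaks between them. The best-scoring DMSO peak of the gene, 75 nt at codons 14 to 34 with a score of 15.6, had no Dox counterpart. Its rank was the 91.0th percentile of the DMSO list, the highest among the DMSO-only cyclin peaks. Of the 9 GGAC sites of the transcript, 5 lay in DMSO peaks and 2 of those also in Dox peaks, at positions -965 and 273.

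Ccne2 (ENSMUSG00000028212.16, chr4:11191351-11204779, plus strand) encodes cyclin E2, a close relative with the same partner. It had 0 peaks in both lists. Its transcript of 3006 nt held 2 GGAC sites, both in the 3′UTR and both over 200 nt from the stop codon, the lowest density of the 9 transcripts at 0.665 sites per kb. The transcript of Ccne1 held 4.50 per kb.

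Cyclin A2, which acts with CDK2 and then CDK1, stood apart by position. Ccna2 (ENSMUSG00000027715.9, chr3:36564865-36572150, minus strand) had 2 DMSO peaks and 0 Dox peaks. They were 50 and 100 nt long, at chr3:36565440-36565489 and chr3:36565215-36565314, with scores of 11.8 and 12.2. Both lay deep in the 3′UTR, with middle bases 771 and 971 nt after the stop codon. Neither held GGAC or DRACH, although the transcript held 11 GGAC sites, 2 of them within 200 nt of the stop codon. It was the only cyclin gene with a peak that had none at the stop codon.

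For the B-type cyclins the lists differed at the 5′ end of the coding sequence and met at its 3′ end. Ccnb1 (ENSMUSG00000041431.16, chr13:100778650-100786570, minus strand) encodes cyclin B1, the mitotic partner of CDK1. Its DMSO peaks were 50, 125 and 175 nt long, with scores of 15.1, 11.1 and 14.9. The first and second lay at codons 50 to 64 and 65 to 104, next to each other across a splice junction, and had no Dox counterpart. The last, chr13:100779600-100779774, covered the stop codon and was overlapped by the only Dox peak, chr13:100779600-100779749, of 150 nt and a score of 13.1. These peaks were at the 88.9th and 80.4th percentiles of their lists. No Ccnb1 peak held GGAC, and neither of the 2 GGAC sites of the transcript lay within 200 nt of the stop codon. Of the DRACH sites in both stop codon peaks the first downstream of the stop codon is printed with the consensus in capitals:
Ccnb1, position 10, chr13:100779658-100779678, minus strand: actccaatAGACTgctacatc

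Ccnb1 has processed pseudogenes, which bears on these values. The DMSO peak at codons 65 to 104 had 3 other near-identical loci (98% or more identical over 90% or more of its length) and the stop codon peak had 2 in each list, in Ccnb1-ps, Gm12856 and Gm8416. Ccnb1-ps, Gm12856 and Gm8416 carried 0 peaks in either list. The DMSO peak at codons 50 to 64 fell just short of the coverage limit. It matched Gm8416, Gm12856, Gm4870 and Ccnb1-ps with 100% identity over 88.0% of its length. Gm4870 also matched the peak at codons 65 to 104 (96.7% identity) and the DMSO stop codon peak (97.1%), below the identity limit. Peaks over Gm4870 were not counted. Reads from such copies cannot be told apart from those of the gene by most of their sequence.

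Ccnb2 (ENSMUSG00000032218.7, chr9:70407692-70421547, minus strand) encodes cyclin B2. It had 2 DMSO peaks of 25 nt at codons 59 to 67 and 75 to 83, with scores of 10.2 and 11.9 and no Dox counterpart. Its DMSO peak of 150 nt joined exons 8 and 9 and ran across the stop codon with a score of 12.6. The Dox peak there, chr9:70407892-70408016, was 125 nt long with a score of 11.2. The rank was the 70.8th percentile in the DMSO list and the 37.4th in the Dox list, the largest fall in rank among the cyclin sites matched 1 to 1. The GGAC at position 8 lay inside both.

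Ccnf had the same number of peaks in each list. Ccnf (ENSMUSG00000072082.7, chr17:24222198-24251484, minus strand) encodes cyclin F, whose ligase targets the ribonucleotide reductase subunit RRM2 and other cell cycle proteins for degradation. The number was 3 in each, over 800 bases with DMSO and 600 with Dox, and each Dox peak lay inside its DMSO counterpart. The most 5′ one joined exons 16 and 17, with 350 nt and a score of 12.7 in the DMSO list and 325 nt and a score of 15.0 in the Dox list. The middle one ran across the stop codon in the DMSO list, with 300 nt and a score of 15.8, the best of all DMSO cyclin peaks. In the Dox list it lay just after the stop codon, with 200 nt and a score of 16.2. The last one, in the 3′UTR, had 150 nt and a score of 11.7 against 75 nt and a score of 10.7. The Dox ranks of the first and second were above the DMSO ranks (91.3 against 72.3 and 94.1 against 91.3), and that of the last was below (20.0 against 52.7). With 7 GGAC sites in DMSO peaks and 6 in Dox peaks, Ccnf held more of the sites than any other cyclin gene in each list. The site at position -19 was outside the Dox peak, which began 28 nt after the first base of the stop codon.

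Across the genes, 7 sites had exactly 1 DMSO and 1 Dox cyclin peak. The DMSO peak was the longer one at 7 of 7, with medians of 175 and 150 nt, and the Dox peak lay wholly inside it at 7 of 7. Over all such pairs the DMSO peak was longer in 68.9%. The share of all pairs with the Dox peak wholly inside is not given here. Of all Dox bases 93.0% lay in DMSO peaks, so that nesting cannot be called particular to the cyclin sites. The percentile was higher in the Dox list at 3 of 7 cyclin sites, 1 in Ccnd1 and 2 in Ccnf, beside 37.9% of all pairs. The Dox minus DMSO difference in percentile ran from -33.4 for Ccnb2 to 43.5 for Ccnd1, so that the cyclin sites did not move in rank together.

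GGAC was found only in cyclin peaks that the lists had in common. The motif was present in 8 of 21 DMSO cyclin peaks (38.1%, 20.8 to 59.1), against 54.0% of all DMSO peaks. Of the Dox peaks it was present in 6 of 12 (50%, 25.4 to 74.6), against 55.9%. All 8 DMSO peaks with GGAC were overlapped by a Dox peak, which gave 8 of 11 overlapped peaks (72.7%, 43.4 to 90.3) and 0 of 10 DMSO-only peaks, a count that allows a share of up to 30.0%. Over the whole DMSO list the shares were 69.2% and 33.9%. Length goes with this, since the DMSO-only cyclin peaks were 25 to 125 nt long with a median of 50 nt and the overlapped ones had a median of 175 nt. Among all DMSO-only peaks of up to 125 nt, 28.9% held GGAC. This is below the upper limit of the cyclin count, and the difference was not tested. Score rank did not go with it, the median percentile being 55.9 for DMSO-only and 52.7 for overlapped cyclin peaks.

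By site, the 9 transcripts held 104 GGAC sites, of which 15 lay in a DMSO peak and 10 in a Dox peak, and the 10 were all among the 15. Within 200 nt of the stop codon there were 13 sites, of which 8 were in a DMSO peak and 5 in a Dox peak. Inside cyclin peaks there were 4.95 sites per kb (DMSO) and 6.71 per kb (Dox), against 3.52 and 3.51 in the rest of the same transcripts. Over all peaks of the lists the densities were 6.13 and 6.54.

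The partners of the cyclins were examined as a list of 34 genes by role. A peak was found over 23 of them with DMSO and over 16 with Dox, with 66 and 41 peaks that covered 11475 and 6700 bases. Both lists had 16 of them, 7 had a DMSO peak alone, and 0 had a Dox peak alone. Over all peaks the ratio of DMSO to Dox was 1.45 in number and 1.47 in bases. The 10 ESC genes had 36 DMSO and 37 Dox peaks, over 14544 and 13594 bases. Though fewer, these genes had more covered bases than the partners, and the sets were not matched for this. Beside the 7 of 23 partners without a Dox peak stand the 22.0% of all genes with a DMSO peak. A peak lay on 27.5% (DMSO) and 22.1% (Dox) of all protein-coding genes, and the counts by role below hold too few genes to be read against these shares. No count was tested.

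Peaks lay on 4 of 4 CDKs in DMSO-treated cells and on 3 of 4 in Dox-treated cells. Cdk4, the kinase of D-type cyclins, had 3 and 2 peaks, and Cdk2, the partner of the E- and A-type cyclins, had 2 DMSO peaks, 50 bases in all, with 0 under Dox. Peaks lay on 2 of 7 CDK inhibitors with DMSO and on 1 of 7 with Dox. Cdkn1a (p21) had 2 DMSO peaks over 300 bases and 1 Dox peak over 50 bases, and Cdkn1b (p27) had a DMSO peak of 25 bases only.

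Pocket proteins and E2F factors, which hold back and drive the transcription of S-phase genes, had a peak in 8 of 11 genes with DMSO and 4 of 11 with Dox. E2f3 had 5 DMSO and 3 Dox peaks, the most over both lists, and E2f4 had 3 and 4. Rbl2, E2f2, E2f6 and E2f7 had DMSO peaks only, over 150, 150, 75 and 175 bases. The phosphatases and kinases that switch CDKs on and off had a peak in 3 of 5 and 2 of 5 genes. Cdc25a, an activating phosphatase, had 5 and 4 peaks over 1100 and 800 bases, and the inhibitory kinase Pkmyt1 had 1 DMSO peak of 125 bases only. Among the parts and regulators of ligases that act on cyclins, the same count of 6 of 7 genes had a peak in each list. Ambra1, which targets D-type cyclins, had 10 and 7 peaks over 1375 and 950 bases.

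**Figure D4:**
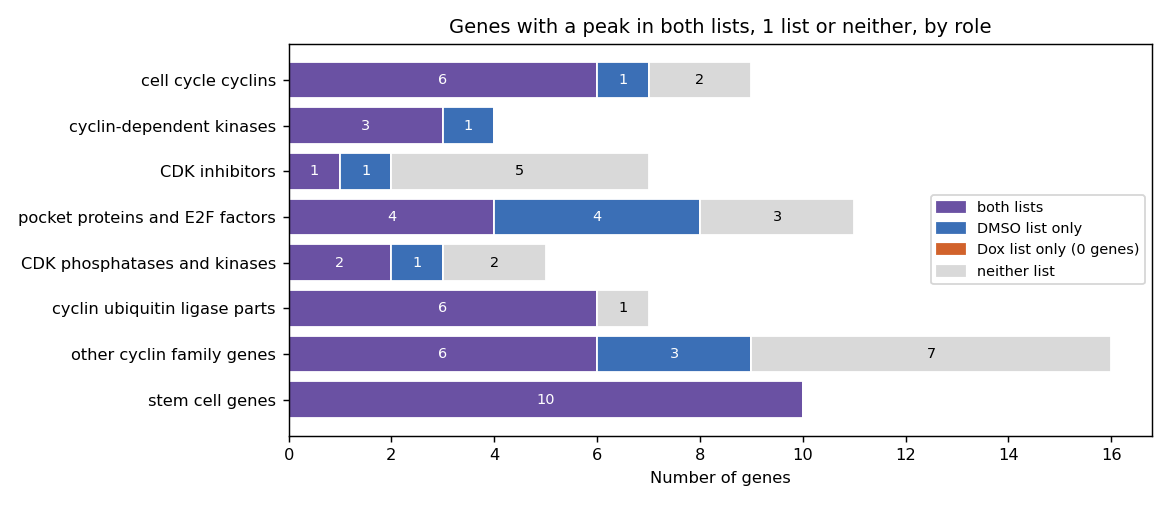
Number of genes (horizontal axis) with a peak in both lists (purple), the DMSO list only (blue), the Dox list only (orange, 0 genes) or neither (grey), for the 9 cyclins, their partners by role, other cyclin family genes and 10 ESC genes. The ESC genes are all purple, and the pocket protein and E2F bar has 4 blue genes of 11.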

How the data were processed

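MeRIP-seq libraries were filtered by the authors with fastp 0.19.4, aligned to mm10 with HISAT2 2.2.1, and exomePeak2 called enrichment of IP against input, with a version and settings that are not given in the sources used here. Each treatment has 1 deposited list, and how its replicates entered it is not stated. Each deposited peak has exon blocks and a score, read as the authors' −log10 p-value because the lowest value was 10.0, the highest finite value 296 and 4 were infinite. Whether it was adjusted is not stated.

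Peaks were compared with GENCODE M21 exons (GRCm38), at whose edges 99.8% of inner block edges lay in each list. Positions used 1 transcript per gene, that with the longest coding sequence, and the sequence of 9 of 9 cyclin transcripts built from the genome equalled GENCODE's. Of the cyclin bases in peaks, 3030 of 3100 (DMSO) and 1491 of 1500 (Dox) lay on these transcripts. A peak can therefore be longer than its stretch on the transcript. Motifs were searched on the peak's strand, leaving out 7 DMSO and 4 Dox peaks on unplaced sequence. Each peak was searched for near-identical copies by blastn 2.17.0, leaving out patches and alternate loci. Intervals are Wilson 95% intervals, and an upper limit for a count of 0 is 3 counts of the total. Python 3.11.15, scipy 1.17.1 and matplotlib 3.10.9 were used. Tested on 285 simulated peaks, the assignment of genes, positions and overlaps was right for 100%.

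The members and the lists of partners were chosen with earlier results of these data known. All 9 members are named, and of the other genes those with a peak in 1 list only and, for each role, the gene with most peaks. For each member with GGAC in a peak the site nearest the stop codon in its best-scoring peak with the motif is shown. Further sites in the report were chosen after their values were seen.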

Additional observations from a re-analysis of the deposited data

How the results depend on the processing

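No paired analysis was possible because only 1 list per treatment, with no values per replicate, was used here, and for the same reason no replicate was left out. For 22 results 76 alternative values were computed. Of these, 65 lay inside the interval of the reported share or within 1.5 times of the reported count or ratio, and 11 lay outside. The ratio of DMSO to Dox for cyclin peaks ran from 1.58 with equal list sizes to 1.92 with strand ignored. For covered bases it ran from 1.81 to 2.11. Over all peaks the ratios were 1.45 and 1.47 in the main setting, so a value above 1 is by itself not particular to the cyclins. Ratios over all peaks under the alternatives are not given here. A score of at least 11.6, the DMSO median, left 1950 covered DMSO bases, 62.5% of Dox cyclin peaks overlapped, and 14 partner genes with a DMSO and 9 with a Dox peak. With 50% of both peaks required, the overlapped share was 28.6% of DMSO and 50% of Dox cyclin peaks. DRACH in place of GGAC was found in 76.2% of DMSO and 83.3% of Dox cyclin peaks. GTCC, the reverse complement of GGAC, was found in 28.6% and 25.0%. Shares of all peaks with DRACH or GTCC are not given here, so these values cannot be read against the whole lists. With 90% identity over 50% of the peak, 11 DMSO and 5 Dox cyclin peaks had another locus, against 2 and 2 in the main setting. This includes partial matches of peaks of 25 nt, but also longer peaks. The DMSO peaks of 150 nt in Ccnd3 and Ccnb2 matched another locus at 96.7% identity over 100% and at 93.7% over 83.3%. The causes of the other moves were not tested.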

Other observations

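Cyclin family genes outside the core cell cycle were looked up in the same way, 16 in all. DMSO peaks lay on 9 of them and Dox peaks on 6, in all 24 and 15 peaks that covered 5175 and 3625 bases. Over all protein-coding genes the shares with a peak were 27.5% and 22.1%, and the DMSO list held 1.45 times as many peaks. Ccnk, the partner of CDK12, a kinase of transcription, had 4 peaks in each list, over 600 and 475 bases, and Ccnt2, a subunit of the elongation kinase P-TEFb, had 4 in each, over 1375 and 1150 bases. Ccng1, a target gene of p53, had 4 DMSO peaks, 450 bases in all, with 0 under Dox. E2f2, with 4 and 0, was the other gene of the cell cycle lists with that many DMSO peaks and no Dox peak. Ccnjl and Ccny had a DMSO peak only, over 75 and 100 bases. No difference was tested.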
